A study of Homo sapiens with 6 samples.

Results

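SET, the ANP32 proteins and other acidic proteins that bind histones form the group of 10 genes described here: SET, ANP32A, ANP32B, ANP32E, NAP1L1, NPM1, PTMA, NASP, ASF1A and ASF1B. The genes were taken by their symbols, and all 10 of 10 were listed in each of the 6 libraries, among 17787 symbols listed in any library. They hold messenger RNA of A549, an established line of human lung adenocarcinoma cells. In 3 libraries the label names siFOXD3, a small interfering RNA named for the forkhead transcription factor FOXD3, and in 3 the label names siNC with the genotype wild type. What siNC stands for is not spelled out, and it was taken as the control. The labels do not say whether replicates were separate cultures, so the spread behind each p-value may be technical only.

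Histone chaperones escort histones from the ribosome to DNA and back, and shield their positive charge with acidic stretches of protein. SET and ANP32A are also known as inhibitors of the phosphatase PP2A and as subunits of a complex that masks histone tails from acetyltransferases. NASP and ASF1 hand new histones H3 and H4 to the assembly factors that work behind the replication fork, while NPM1 acts in the nucleolus, where ribosomes are assembled.

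The unit is FPKM, a value per length of transcript and per depth of library, so levels can be compared between genes. Library sums ran from 596623 to 618389 FPKM, and the spacing of low values pointed to 7680000 to 9080000 fragments per library. FOXD3 itself was listed at 0.0749 FPKM in siFOXD3 replicate 2 and not in siFOXD3 replicates 1 and 3, against 0.152, 0.291 and 0.134 FPKM in siNC replicates 1 to 3, all close to the limit of detection. The epithelial keratin KRT18 stood at 1995 FPKM or more in every library, whereas the leukocyte gene PTPRC was at 0.309 FPKM or less and the endothelial gene PECAM1 at 0.141 FPKM or less. Of 12 photoreceptor markers, examined because the labels' protocol speaks of retina, 2 reached 1 FPKM in any siFOXD3 library and 1 in any siNC library. Their summed level was 5.08 to 6.35 FPKM in siFOXD3 and 3.19 to 3.78 FPKM in siNC. The leukocyte list (10 markers) had 2 genes that reached 1 FPKM in any siFOXD3 library and 3 in any siNC library, with sums of 67.5 to 68.5 FPKM in siFOXD3 and 74.7 to 85.0 FPKM in siNC, nearly all of it CD68. Of 7 fibroblast markers 1, and of 6 endothelial markers 1, reached 1 FPKM in any library of either group. The part of these markers in the results was not tested.

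The series title names SET as a gene that FOXD3 represses, so stretches upstream of some of its starts are shown, beside those of PTMA, which had the highest fold change of the group, and of ANP32A and ANP32B, relatives whose values differed. RefSeq (GRCh38.p14) gave 14 windows for 9 of the 10 genes, each from 250 bases before to 50 bases after a start, and SET alone had 5. The lines give the 250 bases before the start, with capitals marking the E-box CACGTG, the site that MYC and related factors recognise.
SET, chr9:128683174-128683423, + strand: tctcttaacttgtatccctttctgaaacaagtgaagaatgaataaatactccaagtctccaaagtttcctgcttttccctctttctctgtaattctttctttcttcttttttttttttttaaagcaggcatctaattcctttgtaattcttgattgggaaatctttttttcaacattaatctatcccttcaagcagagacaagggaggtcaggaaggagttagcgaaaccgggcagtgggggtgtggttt
SET, chr9:128688972-128689221, + strand: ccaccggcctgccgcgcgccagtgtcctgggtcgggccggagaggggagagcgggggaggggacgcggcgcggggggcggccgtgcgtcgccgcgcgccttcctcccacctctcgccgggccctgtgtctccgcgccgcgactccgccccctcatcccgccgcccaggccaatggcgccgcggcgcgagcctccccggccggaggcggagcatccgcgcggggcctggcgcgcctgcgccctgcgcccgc
SET, chr9:128689724-128689973, + strand: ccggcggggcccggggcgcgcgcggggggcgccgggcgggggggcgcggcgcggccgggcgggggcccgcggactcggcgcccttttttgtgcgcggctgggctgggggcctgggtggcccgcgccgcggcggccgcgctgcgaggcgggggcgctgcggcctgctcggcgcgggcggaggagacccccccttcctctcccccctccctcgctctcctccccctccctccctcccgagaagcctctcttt
PTMA, chr2:231708275-231708524, + strand: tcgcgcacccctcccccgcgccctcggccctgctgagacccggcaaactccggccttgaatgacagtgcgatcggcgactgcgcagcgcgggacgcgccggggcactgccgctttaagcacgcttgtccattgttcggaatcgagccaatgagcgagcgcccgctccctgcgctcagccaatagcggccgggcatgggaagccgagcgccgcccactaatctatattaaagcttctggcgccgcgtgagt
ANP32A, chr15:68820896-68821145, - strand: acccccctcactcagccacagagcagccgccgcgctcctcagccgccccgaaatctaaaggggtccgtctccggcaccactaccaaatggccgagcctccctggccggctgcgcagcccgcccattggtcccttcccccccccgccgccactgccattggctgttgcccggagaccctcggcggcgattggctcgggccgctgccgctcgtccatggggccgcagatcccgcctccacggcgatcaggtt
ANP32B, chr9:97983091-97983340, + strand: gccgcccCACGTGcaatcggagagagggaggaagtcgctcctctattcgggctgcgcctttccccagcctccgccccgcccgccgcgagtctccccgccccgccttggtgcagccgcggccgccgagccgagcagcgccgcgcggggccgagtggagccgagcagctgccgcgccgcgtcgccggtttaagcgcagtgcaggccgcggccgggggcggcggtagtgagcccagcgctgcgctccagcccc

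The upstream SET start lay in a window of 38.3% G and C, and the starts at the downstream end of the locus in windows of 81.0% and 81.3%. Over the 14 windows the median was 65.8%, and it was 58.7% over all 35116 windows of the table. Searched on both strands, the forkhead core TGTTTAC was in 0 of the 14 windows and in 3.42% of all windows. The wider form TGTTTNC, of which TGTTTAC is a case, was in the NASP window only and in 18.0% of all windows. The E2F motif TTTNGCGC was in the NAP1L1 window only, against 1.79% of all windows, and CACGTG was in 3 windows, of SET and ANP32B, against 7.26% of all. The SET matches lie outside the printed stretches, so capitals appear only in the ANP32B line. A match of letters is no evidence of binding. With so few short windows and a share of 3.42%, the lack of TGTTTAC is no evidence that binding is absent. The FPKM values do not tell which start was in use.

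Comparing siFOXD3 with siNC asks how these genes stand when FOXD3 is targeted. Of the 10 genes, 8 rose in siFOXD3 and 0 fell. Out of 12555 genes tested (limma, Benjamini-Hochberg adjusted p under 0.05), 27.2% were called higher and 38.7% lower, 65.9% in all. At an unadjusted p under 0.05, 0 of the 10 were lower as well, and with quantile normalization 1 was called lower (ANP32B). The median log2 fold change of the 10 genes was 0.53, against -0.08 for all genes tested. The ranges of siFOXD3 and siNC were apart, in either direction, for 9 of the 10 genes and for 70.7% of all genes. For 8 of the 10, and for 29.6% of all genes, every siFOXD3 library was above every siNC library. All 10 genes lie above 5 FPKM, and among genes of at least 5 FPKM in 3 libraries 32.5% were called higher. Lower genes made up 58.7% of all calls on the values as deposited, 50.1% after median-of-ratios scaling and 47.4% after quantile normalization, under which the median of all genes was 0.03.

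**Figure D1:**
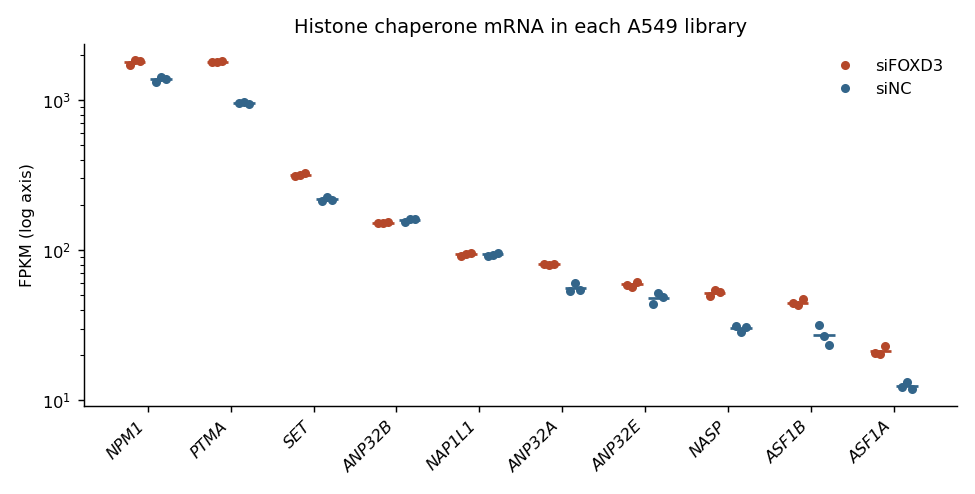
FPKM of each gene in each library on a log axis, with siFOXD3 libraries left of siNC libraries; points are libraries and bars are means of 3. For ANP32B and NAP1L1 the groups lie side by side (means of 152 and 159 FPKM, and of 94.2 and 93.6 FPKM), and for the other genes each siFOXD3 point is above each siNC point.

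SET binds histones and inhibits PP2A. Its level was 313, 315 and 327 FPKM in the siFOXD3 libraries, against 211, 226 and 215 FPKM in the siNC libraries. The lowest siFOXD3 library stood 86.1 FPKM above the highest siNC library, a gap several times wider than the range within either group. The ratio of means was 1.46 and the log2 fold change 0.55 ± 0.04 (SE, limma, adjusted p = 2.98e-06), with a 95% interval of 0.45 to 0.65. Of all genes tested, 9.76% had a higher log2 fold change than SET.

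ANP32A, the pp32 protein that shares PP2A inhibition with SET, had 80.8, 79.4 and 80.7 FPKM in siFOXD3 libraries, against 53.7, 60.2 and 54.0 FPKM in siNC libraries. Its log2 fold change was 0.52 ± 0.05 (SE, limma, adjusted p = 1.78e-05), close to that of SET. ANP32E, which takes the histone variant H2A.Z off chromatin, had 58.9, 57.0 and 61.4 FPKM in siFOXD3 libraries, against 43.6, 51.9 and 48.7 FPKM in siNC libraries. It rose by 0.30 ± 0.07 (SE, limma, adjusted p = 0.00281), the smallest change among the 8 genes that rose. Its groups were 5.12 FPKM apart at their nearest.

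ANP32B, a chaperone of H3 and H4 from the same family, had 152, 151 and 154 FPKM in siFOXD3 libraries, against 155, 162 and 160 FPKM in siNC libraries. The siFOXD3 values were all below the siNC values, but the nearest pair was only 0.187 FPKM apart. The log2 fold change was -0.06 ± 0.04 (SE, limma, adjusted p = 0.245), 0.03 with median-of-ratios scaling (adjusted p = 0.579) and -0.17 with quantile normalization (adjusted p = 0.00751), so neither its direction nor its call held across scalings. As deposited, the 95% interval runs from a ratio of 0.899 to one of 1.03.

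The members of the ANP32 family thus stood in other proportions in the 2 conditions. ANP32B was 1.88, 1.90 and 1.91 times ANP32A in siFOXD3 libraries and 2.88, 2.69 and 2.96 times ANP32A in siNC libraries. On the log2 scale this ratio differed by -0.58 (siFOXD3 minus siNC), with no overlap between the groups (two-sided exact permutation p = 0.1, adjusted over 5 ratios 0.125). ANP32E was 0.736 ± 0.0225 times ANP32A in siFOXD3 and 0.859 ± 0.0451 times in siNC (SD, n = 3 each, two-sided exact permutation p = 0.1, adjusted 0.125). With 3 libraries against 3, the exact permutation test can give no p below 0.1, and a ratio within a library is the same under any scaling by 1 factor per library, though not under quantile normalization.

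NAP1L1, a chaperone of H2A and H2B with the same fold as SET, had 92.0, 94.3 and 96.3 FPKM in siFOXD3 libraries, against 91.6, 93.2 and 96.1 FPKM in siNC libraries. The groups overlapped almost fully. Its log2 fold change was 0.01 ± 0.05 (SE, limma, adjusted p = 0.877) and turned to -0.07 with quantile normalization, and the 95% interval covers ratios of 0.938 to 1.08.

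PTMA, prothymosin alpha, is a small and very acidic nuclear protein that binds linker histone. It had 1782, 1788 and 1821 FPKM in siFOXD3 libraries, against 948, 969 and 944 FPKM in siNC libraries. The groups were 813 FPKM apart at their nearest, and the ratio of means was 1.88. Its log2 fold change of 0.91 ± 0.03 (SE, limma, adjusted p = 2.66e-08) was the highest of the 10 genes, and 2.74% of all genes tested had a higher one.

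NPM1, nucleophosmin, a nucleolar chaperone, had 1723, 1834 and 1817 FPKM in siFOXD3 libraries, against 1311, 1427 and 1387 FPKM in siNC libraries. All siFOXD3 values were above all siNC values, and the log2 fold change was 0.38 ± 0.04 (SE, limma, adjusted p = 2.61e-05). PTMA and NPM1 are the most abundant of the group, and both have processed pseudogenes. GENCODE 29 names 45 pseudogenes for NPM1, 19 for SET, 7 for PTMA and 3 each for ANP32B and NAP1L1, none of which is a symbol in the files, so reads shared with them could have been assigned to or lost from these genes.

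NASP, ASF1A and ASF1B handle newly made H3 and H4. NASP, which guards the soluble pool of these histones, had 49.6, 53.9 and 52.5 FPKM in siFOXD3 libraries, against 31.2, 28.5 and 30.7 FPKM in siNC libraries. Its log2 fold change was 0.77 ± 0.06 (SE, limma, adjusted p = 1.58e-06). ASF1A, which passes H3.3 to the HIRA complex, had 20.7, 20.4 and 22.9 FPKM in siFOXD3 libraries, against 12.2, 13.2 and 11.8 FPKM in siNC libraries. It was the lowest of the group in level, with an estimated 210 to 459 fragments per library (counting error of at most 6.89%, which covers counting error only), and rose by 0.74 ± 0.07 (SE, limma, adjusted p = 8.75e-06).

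ASF1B, the ASF1 form known from dividing cells, had 44.1, 43.1 and 47.1 FPKM in siFOXD3 libraries, against 31.8, 26.6 and 23.4 FPKM in siNC libraries. Relative to their mean the siNC libraries were more spread than those of the other genes, with replicate 1 the highest, and the lowest siFOXD3 library was still 11.3 FPKM above it. The log2 fold change was 0.70 ± 0.09 (SE, limma, adjusted p = 8.83e-05), between 0.60 and 0.82 when 1 library was left out. The ratio of ASF1B to ASF1A was 2.10 ± 0.0376 in siFOXD3 and 2.20 ± 0.345 in siNC (SD, n = 3 each, two-sided exact permutation p = 1.0), with overlapping groups. In log2 terms that ratio differed by -0.0551 (siFOXD3 minus siNC), and by 0.0705 without siNC replicate 1.

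**Figure D2:**
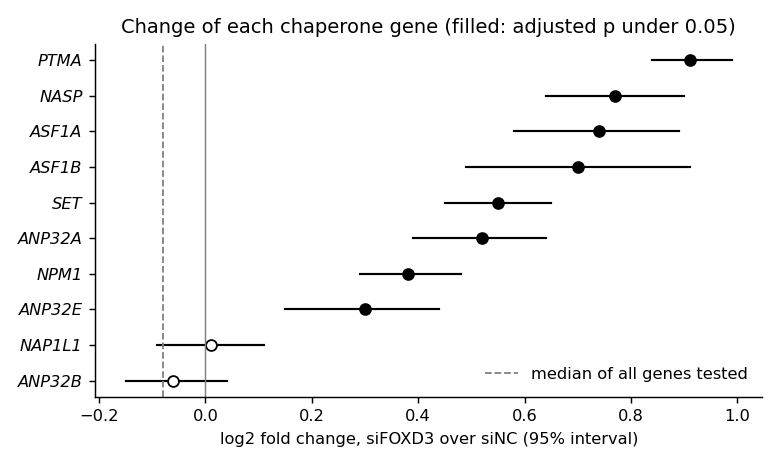
Log2 fold change of each gene, siFOXD3 over siNC, on the log2(FPKM + 1) scale, with its 95% interval from limma; filled points have an adjusted p under 0.05 and the dashed line is the median of all genes tested (-0.08). The 8 filled points run from 0.30 (ANP32E) to 0.91 (PTMA), and the open points of NAP1L1 and ANP32B lie at 0.01 and -0.06.

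Relative to the median of all genes, the changes were 0.63 for SET, 0.59 for ANP32A, 0.99 for PTMA and 0.46 for NPM1 as deposited, and 0.42, 0.42, 0.93 and 0.47 with quantile normalization. NASP, ASF1A and ASF1B stood at 0.85, 0.81 and 0.78 as deposited, and at 0.71, 0.76 and 0.66 with quantile normalization. ANP32E stood at 0.37 as deposited and 0.19 with quantile normalization, ANP32B at 0.02 and -0.20, and NAP1L1 at 0.09 and -0.10. The 8 genes that rose had an adjusted p of at most 0.0213 (ANP32E, quantile normalization) in each of the 16 alternative settings.

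The order of levels differed at its top. In siFOXD3 libraries PTMA (1797 ± 21.1 FPKM, SD, n = 3) and NPM1 (1791 ± 59.9 FPKM) did not differ beyond their spread, with PTMA ahead in 2 of 3 libraries. In siNC libraries NPM1 (1375 ± 59.0 FPKM, SD, n = 3) was above PTMA (953 ± 13.4 FPKM) in 3 of 3. SET, ANP32B, NAP1L1, ANP32A, ANP32E, NASP, ASF1B and ASF1A then followed in this order in both groups, and each pair of neighbours was separate except NASP and ASF1B in siNC, whose ranges overlapped.

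Together the 10 genes summed to 4315, 4436 and 4480 FPKM in siFOXD3 libraries, against 2888, 3058 and 2970 FPKM in siNC libraries, a ratio of 1.48. That was 0.721% to 0.751% of all FPKM in siFOXD3 and 0.467% to 0.506% in siNC. PTMA held 40.7% ± 0.495 of the summed FPKM of the group in siFOXD3 and 32.1% ± 0.625 in siNC (SD, n = 3 each). NPM1 held 40.6% ± 0.712 in siFOXD3 and 46.3% ± 0.742 in siNC, and ANP32B 3.46% ± 0.0630 in siFOXD3 and 5.34% ± 0.0486 in siNC. The groups did not overlap for these 3 shares, and each had a two-sided exact permutation p = 0.1, or 0.143 adjusted over 10 shares. The share of SET was 7.21% ± 0.104 in siFOXD3 and 7.31% ± 0.0914 in siNC, with overlapping groups (exact permutation p = 0.4). With quantile normalization, tried after the data were seen, the SET share differed by -0.871 percentage points (siFOXD3 minus siNC) and the groups did not overlap. Shares of NASP (1.18% ± 0.0334 in siFOXD3 and 1.02% ± 0.0766 in siNC) and ASF1A (0.483% ± 0.0256 in siFOXD3 and 0.417% ± 0.0185 in siNC) were higher in every siFOXD3 library, with the same p as above, though those of NASP overlapped with quantile normalization. ANP32E and NAP1L1 had lower shares in every siFOXD3 library, and as deposited the groups overlapped for ANP32A and ASF1B. Shares sum to 100%, so they are not independent of each other.

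**Figure D3:**
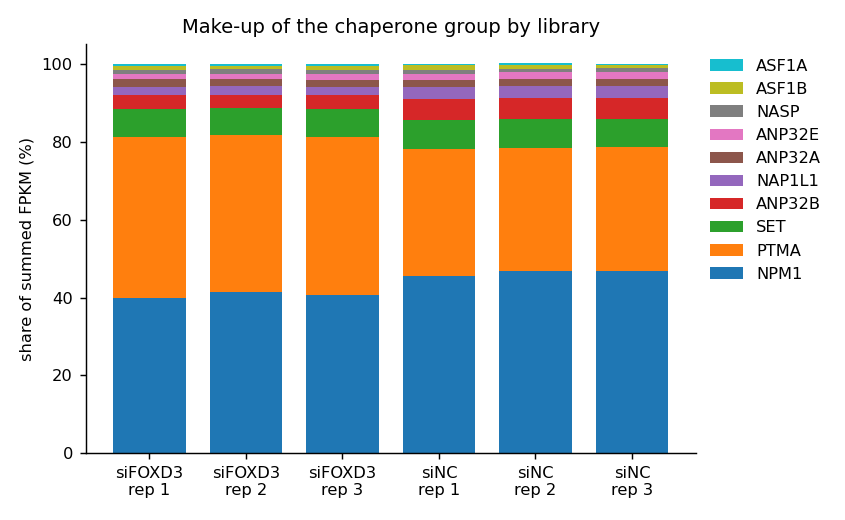
Share of each gene in the summed FPKM of the 10 genes, in percent, with 1 stacked bar per library (siFOXD3 replicates 1 to 3, then siNC replicates 1 to 3). The PTMA segment is 40.3% to 41.3% in siFOXD3 libraries and 31.7% to 32.8% in siNC libraries, and the SET segment is between 7.09% and 7.41% in every bar.

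Measured against SET within each library, PTMA was 5.65 ± 0.0679 times SET in siFOXD3 and 4.39 ± 0.111 times SET in siNC, and NPM1 was 5.64 ± 0.171 times SET in siFOXD3 and 6.33 ± 0.121 times SET in siNC (SD, n = 3 each). Neither ratio overlapped between groups (two-sided exact permutation p = 0.1 each, adjusted 0.125). The direction of the NPM1 ratio did not hold across scalings: its log2 difference, siFOXD3 minus siNC, was -0.168 as deposited and 0.0511 with quantile normalization, where the groups overlapped. That of PTMA to SET was 0.364 as deposited and 0.511 with quantile normalization.

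**Figure D4:**
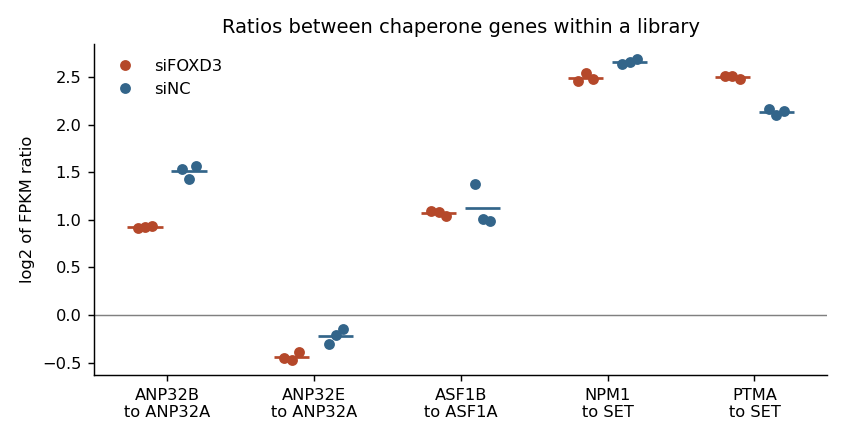
Log2 ratio of FPKM between pairs of genes within each library, siFOXD3 left of siNC; points are libraries and bars are means of 3. The ratio of ANP32B to ANP32A averages 0.924 in siFOXD3 and 1.51 in siNC, that of PTMA to SET 2.50 in siFOXD3 and 2.13 in siNC, and that of ASF1B to ASF1A overlaps between groups.

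The genes whose values over the 6 libraries were most like those of SET were sought among 1655 genes of at least 50 FPKM, by the root mean square difference of centred log2(FPKM + 1) values. They were SLC35B1, a transporter of the endoplasmic reticulum (0.0250), UBA2, a subunit of the SUMO-activating enzyme (0.0283), MORF4L2, a chromatin protein (0.0302), ANXA1, an annexin (0.0318), and HNRNPK, an RNA-binding protein (0.0323). ANP32A was about as near, at 0.0337, with 7 of the 1655 genes nearer. This is a description over 6 libraries in 2 groups and carries no test. SLC35B1 had 71.2 ± 0.579 FPKM in siFOXD3 and 47.0 ± 1.85 FPKM in siNC (SD, n = 3 each).

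Other histone chaperones were followed as a list of 38 genes, of which 31 passed the filter of 1 FPKM in 3 libraries. Of the 31, 18 rose (58.1%), 4 fell and 9 passed in neither direction. Over all genes tested, 27.2% were called higher and 38.7% lower. Their median log2 fold change was 0.31, against -0.08 for all genes. NCL, the nucleolar chaperone nucleolin, had 511 ± 2.55 FPKM in siFOXD3 and 248 ± 11.6 FPKM in siNC (SD, n = 3 each), a log2 fold change of 1.04. IPO4, the importin that carries H3 and H4 with ASF1, had 47.8 ± 1.69 FPKM in siFOXD3 and 23.4 ± 1.86 FPKM in siNC (1.00). GRWD1, which binds histones and helps load the replicative helicase, had 23.7 ± 0.484 FPKM in siFOXD3 and 11.3 ± 1.33 FPKM in siNC (1.01). TSPYL4, a relative of SET and NAP1L1, moved the other way, with 3.76 ± 0.307 FPKM in siFOXD3 and 8.62 ± 0.530 FPKM in siNC (-1.01). The largest limma, Benjamini-Hochberg adjusted p among these 4 was 4.06e-06.

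PP2A, the phosphatase that SET and ANP32A inhibit, was followed through 29 symbols of its subunits and regulators. Of 26 tested, 13 rose, 5 fell and 8 passed in neither direction (median 0.17). Among all genes tested, 27.2% were called higher and 38.7% lower (median -0.08). KIAA1524, which encodes the PP2A inhibitor CIP2A, had 88.0 ± 1.69 FPKM in siFOXD3 and 43.8 ± 5.32 FPKM in siNC (SD, n = 3 each), a log2 fold change of 1.00. IGBP1, which holds the free catalytic subunit, had 30.7 ± 3.74 FPKM in siFOXD3 and 52.7 ± 3.96 FPKM in siNC (-0.76). The regulatory subunits PPP2R5B, with 3.35 ± 0.509 FPKM in siFOXD3 and 8.18 ± 0.754 FPKM in siNC (-1.08), and PPP2R3B (-0.72) fell. The largest limma, Benjamini-Hochberg adjusted p among these 4 was 0.00148. The subunits that form the core of the enzyme were looked at after their values were seen. The scaffold PPP2R1A had 215 ± 2.31 FPKM in siFOXD3 and 214 ± 6.98 FPKM in siNC (limma, adjusted p = 0.982), and the other scaffold gene PPP2R1B rose by 0.33 (adjusted p = 0.00245). The catalytic subunit gene PPP2CA rose by 0.30 (limma, adjusted p = 0.000364), and the other one, PPP2CB, had a log2 fold change of -0.10 (adjusted p = 0.0871).

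The SET complex is a group of proteins around SET and ANP32A that acts on DNA when granzyme A enters a cell, and SET and ANP32 proteins also travel with the exportin XPO1. The list followed here also holds genes that are not part of this complex, such as HMGB1 and CDKN1A. Of 9 tested genes of this list, 6 rose (66.7%), 1 fell and 2 passed in neither direction (median 0.24). The shares of all genes were 27.2% higher and 38.7% lower. NME1, a nuclease of the complex that SET holds back, had 257 ± 9.01 FPKM in siFOXD3 and 119 ± 15.4 FPKM in siNC (SD, n = 3 each), a log2 fold change of 1.11. HMGB1, a DNA-bending protein (0.96), and XPO1 (0.67) rose as well. CDKN1A, the cyclin-dependent kinase inhibitor p21, had 13.5 ± 0.678 FPKM in siFOXD3 and 35.1 ± 3.45 FPKM in siNC (-1.31). The largest limma, Benjamini-Hochberg adjusted p among these 4 was 1.29e-05. Changes were smaller for the other tested genes of the list. HMGB2 (0.42), ELAVL1 (0.24) and APEX1 (0.18) rose, and CAPN1 (0.03) and TREX1 (-0.07) passed in neither direction.

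Only part of the cargo of the chaperones was followed, as 14 symbols, mostly of histone variants and linker histones. HIST1H4C, the only histone H4 gene among them, was at 1.3 FPKM or less in every library and was not tested. Of 12 tested, 6 rose, 2 fell and 4 passed in neither direction (median 0.18). For comparison, 27.2% of all genes tested were called higher and 38.7% lower (median -0.08). H2AFZ, which encodes the H2A.Z that ANP32E removes, had 659 ± 12.4 FPKM in siFOXD3 and 349 ± 30.1 FPKM in siNC (SD, n = 3 each, log2 fold change 0.92), and H2AFV, its close copy, rose by 0.66. H2AFX, the variant marked at DNA breaks, rose by 1.04, and CENPA, the centromere variant bound by a chaperone of its own, by 0.69. The largest limma, Benjamini-Hochberg adjusted p among these 4 was 2.20e-05. The 2 that fell were the linker histone gene H1F0 (-0.37) and H2AFY2 (-0.55), which was at 1.45 FPKM or less. Their adjusted p was at most 0.00258 (limma). The linker histone genes H1FX (-0.10) and HIST1H1C (0.03) passed in neither direction. H3F3A, whose copies can share reads, ran from 19.3 to 41.8 FPKM in siFOXD3 libraries and from 12.7 to 47.5 FPKM in siNC libraries, and was named after its values were seen.

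The SRCAP and TIP60/p400 complexes, which exchange H2A.Z in chromatin, had 18 tested genes, of which 6 rose, 3 fell and 9 passed in neither direction (median 0.09). Here 33.3% rose, against 27.2% of all genes. For lower calls the share of all genes was 38.7%. The ATPases RUVBL1 (0.68) and RUVBL2 (0.39), the actin-like ACTL6A (0.80) and MORF4L2 (0.56) rose, each with an adjusted p of at most 0.000157 (limma). YEATS4 (-0.38), MEAF6 (-0.38) and BRD8 (-0.17) fell, each with an adjusted p of at most 0.0197 (limma). With median-of-ratios scaling 11 of the 18, or 61.1%, were called higher, against 33.0% of all genes.

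Genes of S phase were followed as a list of 20. Of these, 18 rose (90.0%) and 1 fell (median 0.89), against 27.2% of all genes called higher and 38.7% lower. CCNE2, a cyclin of the G1/S transition, had 22.1 ± 0.350 FPKM in siFOXD3 and 7.56 ± 0.432 FPKM in siNC (SD, n = 3 each, log2 fold change 1.43). CDC6 (1.16) and MCM4 (1.08), which license replication origins, and UHRF1 (1.16), which reads hemimethylated DNA, rose too, with a largest limma, Benjamini-Hochberg adjusted p of 5.21e-07 among these 4. The summed level of the 20 genes was 955 to 980 FPKM in siFOXD3 and 554 to 616 FPKM in siNC, and its part in the values of NASP, ASF1A and ASF1B was not tested. In bulk RNA, more cells in a phase and more RNA per cell cannot be told apart.

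**Figure D5:**
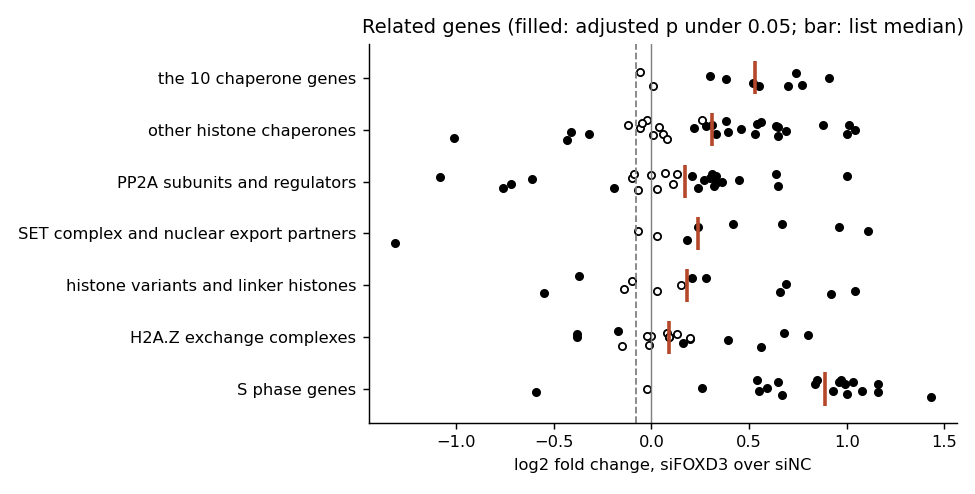
Log2 fold change, siFOXD3 over siNC, of each tested gene in the 10 chaperone genes and in 6 lists of related genes; filled points have an adjusted p under 0.05, coloured bars are list medians and the dashed line is the median of all genes tested (-0.08). Medians run from 0.09 (H2A.Z exchange complexes) to 0.89 (S phase genes), with 0.53 for the 10 genes.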

How the data were processed

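Messenger RNA of A549 cells was measured in 3 siFOXD3 and 3 siNC libraries, grouped and numbered by the sample titles. Per the labels' protocols, libraries were made with an Illumina TruSeq kit from 1 ug of total RNA, and the protocol speaks of retina while the cell type label names A549, which was followed. The authors deposited FPKM values per symbol and library, a unit named per the file headers, where 274 to 307 symbols per file had more than 1 row. The submitters' processing notes name TopHat, Cufflinks and hg19, without versions. Annotation and use of strand: not given in the sources used here.

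Rows of 1 symbol were summed (each of the 10 genes had 1 row per file) and an absent symbol was set to 0. FPKM values are not counts, so log2(FPKM + 1) was tested with limma 3.58.1 in R 4.3.3 (eBayes with trend and robust), group as the only term, on genes that reached 1 FPKM in 3 or more of the 6 libraries. Fold changes on this scale understate the change of low genes. Benjamini-Hochberg adjustment ran over all 12555 genes, with calls at an adjusted p under 0.05, two-sided. Shares and ratios were tested with exact permutation tests. Depth was read from the spacing of low FPKM values in genes with 1 transcript of 700 to 4000 bases in GENCODE 29, with an assumed fragment length of 150 bases. Promoter sequences are from RefSeq on GRCh38.p14, another build than hg19, and nothing was converted between builds.

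The 10 genes and the lists were chosen with earlier results of these data known. From each list the text names up to 4 called genes with the largest change, and the 5 genes nearest to SET. The genes that fell among histone variants and H2A.Z exchange complexes, H1FX, HIST1H1C and HIST1H4C were named after their values were seen. So were CDT1, CCNE1, HMGB2, ELAVL1, APEX1, CAPN1 and TREX1. Across genes, which are not independent replicates, r was 0.985 to 0.991 within a group and 0.937 to 0.947 between groups. At most 0.0876% of values were identical in any pair, and every library was counted as 1 sample. Python 3.11.15 with pandas 2.3.3, numpy 2.4.6, scipy 1.17.1 and matplotlib 3.10.9 was used for the other steps.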

Additional observations from a re-analysis of the deposited data

How the results depend on the processing

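The 8 genes that rose did so in all 16 alternative settings: pseudocounts of 0.1 and 5, no filter, a filter of 5 FPKM, median-of-ratios scaling, quantile normalization, division by the library sum, eBayes without trend and robust, the highest row of a symbol, a replicate block, and each library left out in turn. Genes called ran from 7461 to 8394 with 1 library left out. Quantile normalization turned the median of all genes to 0.03 and NAP1L1 to -0.07, called ANP32B lower (-0.17) and so 1 of the 10 genes, and left 2 of the other histone chaperones lower; the cause was not tested. Tried on shares and ratios after the data were seen, it turned the log2 ratio of NPM1 to SET (siFOXD3 minus siNC) to 0.0511, against -0.168 as deposited, and moved that of PTMA to SET to 0.511. The differences in share, in percentage points, became -0.871 for SET, -0.215 for ANP32A, -2.35 for ANP32B, -0.398 for ANP32E, -1.24 for NAP1L1, -3.71 for NPM1 and 0.0965 for NASP. Median-of-ratios scaling took ANP32B to 0.03 and called 11 genes of the H2A.Z exchange complexes higher. With a filter of 5 FPKM 1 histone variant was called lower, since fewer genes are tested. With 1 library left out, NAP1L1 ran from -0.01 to 0.03 (below 0 without siFOXD3 replicate 3 and without siNC replicate 1), and the log2 ratio of ASF1B to ASF1A, siFOXD3 minus siNC, from -0.122 to 0.0705 (above 0 without siNC replicate 1). Same-numbered libraries deviated together at r = 0.0613, 0.163 and 0.115, and each library correlated best with its own number, a hint from the data only. With the replicate block 8172 genes were called, 8 of the 10 higher and 0 lower, and the direction of each of the 10 was the same. The estimated depth limits the precision of ASF1A, the lowest in level, to a counting error of up to 6.89%.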
